A study of Mus musculus with 62 samples.

Results

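The heat shock, chaperone and cold-inducible genes were read from the deposited gene counts of 3 regions of the mouse brain. These were the suprachiasmatic nucleus (SCN), which holds the master clock, the nucleus accumbens (NAc) of the ventral striatum and the prefrontal cortex (PFC). Members were chosen by symbol alone. They were the protein-coding genes named Hspa, Hspb, Hspd, Hspe or Hsph with a number, Hsp90, Hsf with a number, Dnaja, Dnajb or Dnajc, Bag1 to Bag6, Cct2 to Cct8, Tcp1, Cirbp and Rbm3. Of 95 such genes in the annotation, 75 had a row in the SCN table and 71 of these also had one in the joint table of NAc and PFC, among 12483 rows in all. Hspa12b, Hspa1a, Hspa1b and Hspb6 had a row for the SCN alone. The other 20, among them the small heat shock gene Hspb1, had a row in neither table.

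The counts came from 62 libraries of 26 mice, with 26 NAc, 17 PFC and 19 SCN libraries, and 1 animal gave 1 library per region. The mice were C57BL/6J of both sexes, killed at ZT6 about 4 weeks after circadian rhythm disruption (CRD), a series of 12 h shifts of the light cycle, or after control handling. The protocol text of the labels speaks of CRD in adolescence, CRD in adulthood and controls, and the study's methods name only adolescent CRD and controls for this tissue. Each library is labelled with its region and mouse number alone. No library was therefore assigned to CRD, age or sex, and region is the one contrast that was tested. Punches of frozen tissue hold many cell types, so fewer cells of a type and less RNA per cell cannot be told apart.

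Chaperones of the HSP70 family hold unfolded stretches of other proteins through a cycle of ATP binding and hydrolysis. J proteins (the Dnaj genes) bring them substrates and start hydrolysis, and nucleotide exchange factors such as HSP110 (Hsph1) and the BAG proteins reset the cycle. HSP90 matures kinases and receptors, and the ring-shaped chaperonins fold actin, tubulin and mitochondrial proteins. Heat shock factor 1 (Hsf1) binds repeats of GAA and TTC in front of many of these genes when unfolded proteins build up, and the unfolded protein response of the endoplasmic reticulum (ER) does the same for Hspa5, which encodes the HSP70 of the ER. Cirbp and Rbm3 encode RNA-binding proteins whose transcripts rise with mild cold. In mice both groups follow the daily rhythm of body temperature, the cold-inducible genes in the opposite phase to the heat shock genes.

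Promoter windows of 300 bases, from 250 before to 50 after each annotated start, were available for 59 of the 75 members (80 windows; RefSeq, GRCm38.p6). A heat shock element of 2 units was taken as GAANNTTC or TTCNNGAA on either strand, and one of 3 units as the same repeat continued by 1 more unit, so that every long element also counts as a short one. The long form stood in the windows of 4 members (6.78% of 59), Hsph1, Hspd1, Hspe1 and Dnajb6, against 0.583% of 9426 genes of the tables and 0.662% of 27025 genes with a window. The short form stood in 16 members (27.1%) against 13.5% of the genes of the tables. A match describes these letters and was not tested as a binding site. The stretches below hold the long elements, in capitals, read 5′ to 3′ on the strand of each gene, and are shown because Hsph1 was the gene against which all others were set.

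Hsph1 (chr5:149636280-149636308, minus strand, inside the annotated gene): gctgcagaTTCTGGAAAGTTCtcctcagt
Hspd1 (chr1:55088039-55088096, minus strand): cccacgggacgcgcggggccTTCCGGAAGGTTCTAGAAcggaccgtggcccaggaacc
Hspe1 (chr1:55088039-55088096, plus strand): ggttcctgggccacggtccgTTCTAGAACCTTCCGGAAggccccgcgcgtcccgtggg
Dnajb6 (chr5:29735832-29735884, plus strand): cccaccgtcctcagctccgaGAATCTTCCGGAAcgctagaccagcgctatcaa

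Hspd1 and Hspe1, which encode the ring and the lid of the mitochondrial chaperonin, stand head to head on chromosome 1, so both windows hold a single element read from opposite strands. The ER stress response element, taken as CCAAT, 9 bases and CCACG on either strand, stood in the windows of 3 members (5.08%) against 0.149% of the genes of the tables. All 3, Hspa5, Hsp90b1 and Dnajc3, encode proteins of the ER, and their elements are shown in capitals. Hsp90b1 held a pair of elements, the second of which reads on the opposite strand.

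Hspa5 (chr2:34772005-34772063, plus strand): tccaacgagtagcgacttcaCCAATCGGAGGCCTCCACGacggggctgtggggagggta
Dnajc3 (chr14:118937807-118937865, plus strand): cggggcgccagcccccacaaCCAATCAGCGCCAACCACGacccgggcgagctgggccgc
Hsp90b1, first element (chr10:86705618-86705676, minus strand): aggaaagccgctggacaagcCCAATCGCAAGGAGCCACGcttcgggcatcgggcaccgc
Hsp90b1, second element (chr10:86705513-86705571, minus strand): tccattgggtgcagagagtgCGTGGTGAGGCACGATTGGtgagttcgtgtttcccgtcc

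Total counts were 16496666 to 60009482 per library. Ribosomal RNA of the mitochondrion (mt-Rnr1, mt-Rnr2) took 20.5% to 69.3% of them. The members took a median of 1.58% of the counts of nuclear protein-coding genes in NAc, 1.67% in PFC and 1.88% in SCN libraries. Markers of the regions followed the labels. The 5 striatal markers summed to 400.4 to 976 CPM (counts scaled to a common library size) in the NAc and 11.9 to 43.4 CPM in the PFC, and the 5 markers of cortical glutamatergic neurons to 745 to 877 CPM in the PFC. The cortical sum in the NAc was spread from 9.66 to 433 CPM (median 85.7). Mice were numbered in 2 blocks, J1021 and below (low-numbered mice) and J1140 and above (high-numbered mice). What the blocks stand for is not given, and results are given within each where they differ. The library of mouse J1019 stood at the edge of the NAc group for many members, with mt-Rnr1 and mt-Rnr2 at 68.7% of its counts, and that of J1011 stood at the edge in the NAc and the SCN.

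The most abundant members were the constitutive cytosolic chaperones. Levels were set on 1 scale of CPM (TMM over the rows of both tables), with no test between the SCN and the other regions, because the SCN was deposited in its own table. Per kilobase of exon, the median level of Hsp90ab1 was 334 CPM in NAc, 346 in PFC and 339 in SCN libraries, and that of Hspa8, the constitutive HSP70, was 276, 319 and 278. Hsp90aa1, the inducible HSP90, followed with 124, 172 and 169. Hspa8 ranged from 988 to 1490 CPM in the NAc (median 1185), up to 1472 CPM in the PFC (median 1372) and from 937 to 1603 CPM in the SCN (median 1196). These ranges overlapped in all regions.

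The classical stress-inducible HSP70 genes were near the limit of detection. Hspa1a had 13 counts in its lowest SCN library and a median of 38 counts, or 0.610 to 3.66 CPM (median 1.94). Hspa1b had a median of 28 counts, or 0.221 to 2.71 CPM (median 1.08). Hsf1, the factor itself, had a median of 4.35 CPM in NAc, 4.72 CPM in PFC and 5.95 CPM in SCN libraries, and Hsf2 was at 18.3, 19.5 and 18.8 CPM.

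Of the 71 members on the common scale, 35 had their highest median in the SCN (49.3%, against 40.5% of all 11133 rows). With the total of protein-coding genes as the scale, this was 51 of 71, against 53.5% of all rows. The count thus depended on the scale, and the share of all rows rose with it. On either scale the share of members was above that of all rows, and this was not tested. Every SCN library lay above every library of the other regions for 3 members (4.23%, against 3.9% of all rows). These were Cirbp, Dnajb2 and Dnajc3.

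Cirbp was the member with the clearest SCN level. It ranged from 22.9 to 36.5 CPM in the SCN (median 33.3), from 8.16 to 16.0 CPM in the NAc (median 12.7) and from 8.18 to 15.8 CPM in the PFC (median 12.6). The other cold-inducible gene did not share this pattern. Rbm3 ranged from 5.45 to 17.8 CPM in the SCN (median 12.7), from 4.12 to 15.9 CPM in the NAc (median 10.3) and from 5.75 to 20.5 CPM in the PFC (median 13.2). Its 3 regions overlapped almost completely.

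Dnajb2, a J protein of neurons that passes substrates to the proteasome, ranged from 30.4 to 52.1 CPM in the SCN, above the 12.5 to 21.9 CPM of the other libraries. Dnajc3, an ER J protein that restrains the kinase PERK, ranged from 36.1 to 55.2 CPM in the SCN, above 22.6 to 35.1 CPM. Hspa5 was also at its highest in the SCN, with 207 to 326 CPM (median 241), against 125 to 228 CPM in the NAc (median 154) and 142 to 212 CPM in the PFC (median 188). Its ranges overlapped. Hspb8 and Bag3, partners that send damaged proteins to autophagy, had SCN medians of 12.5 and 6.75 CPM, against 6.26 and 2.65 CPM in the NAc and 6.71 and 2.76 CPM in the PFC. These partners were also among the most spread members of the SCN, with an SD of 0.52 and 0.47 on the log2 scale.

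Among members with a mean of at least 5 CPM, those that varied most from mouse to mouse, by the SD of log2 CPM, were led in the NAc by Dnajc1 (0.52), Rbm3 (0.46), Hsp90aa1 (0.44), Hspa12a (0.39) and Hsp90ab1 (0.36). In the PFC they were Rbm3 (0.40), Dnajc1 (0.33), Dnajc21 (0.29), Hspb8 (0.27) and Cirbp (0.27), and in the SCN Hspb8, Bag3, Hsf4 (0.47), Rbm3 (0.42) and Bag2 (0.42). Rbm3 was the one member among the 5 widest of every region. Hspa9, the mitochondrial HSP70, was steady by comparison, at 118 to 174 CPM in NAc, 123 to 142 CPM in PFC and 128 to 157 CPM in SCN libraries.

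**Figure D1:**
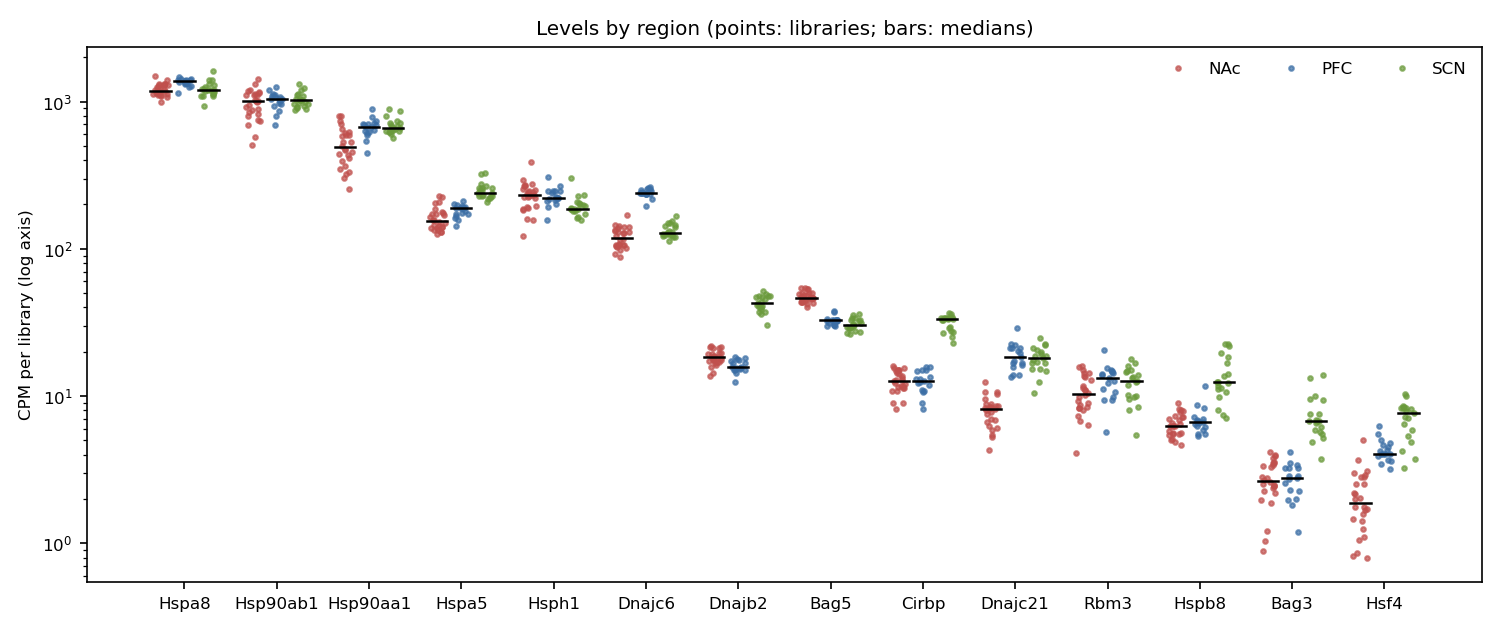
Level of 14 members in CPM per library on a log axis, by region; each point is 1 library (26 NAc, 17 PFC and 19 SCN) and each bar a median. Every SCN point of Cirbp (22.9 to 36.5 CPM) and Dnajb2 (30.4 to 52.1 CPM) lies above the other regions, whereas Hspa8, Hsp90ab1, Hsph1 and Rbm3 overlap.

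Between the NAc and the PFC, 22 of 71 members (31.0%) were called by edgeR's quasi-likelihood test (adjusted p below 0.05, fold of 1.2 or more in either direction), where 45.4% of all 11569 rows were called. The comparison covers 26 NAc and 17 PFC libraries. Of the 22, 10 were higher in the NAc (14.1% of members, 23.7% of all rows) and 12 lower (16.9% and 21.7%). The median log2 fold change of the members was -0.02 and that of all rows 0.02. The differences below are those of single genes. With no threshold on the fold, 42 members (59.2%) and 63.1% of all rows passed.

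The lower members came from 7 of the 11 roles, with 6 J proteins among the 12. Dnajc21, a J protein of ribosome assembly, ranged from 4.29 to 12.5 CPM in the NAc (median 8.17) and from 13.5 to 29.0 CPM in the PFC (median 18.4), with no overlap. Its log2 fold change was -1.23 ± 0.10 (SE; adjusted p = 1.9e-15). Dnajc6, which encodes auxilin, the J protein that strips clathrin from synaptic vesicles, ranged from 88.3 to 170.4 CPM in the NAc and from 195 to 262 CPM in the PFC, again with no overlap. Its fold change was -0.99 ± 0.06 (adjusted p = 1.2e-19), and every PFC library also lay above every SCN library. This held for no other member in the PFC, and for 2.7% of all rows. Dnajb1, the J protein partner of HSP70 in the heat shock response, was at 11.9 to 19.4 CPM in the NAc and 17.9 to 26.9 CPM in the PFC (-0.56 ± 0.05). Hspa2, an HSP70 best known from testis, was at 15.5 to 27.8 CPM in the NAc and 26.7 to 45.0 CPM in the PFC (-0.71 ± 0.06). In each of these 4 genes the NAc was higher in 0 of the 17 mice that gave both regions.

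A pair of low members fell by a similar size. Hsf4, a heat shock factor best known from the lens, had 0.795 to 5.03 CPM in the NAc and 3.18 to 6.28 CPM in the PFC (-1.04 ± 0.16). Bag2, which inhibits the ubiquitin ligase CHIP, had 0.734 to 3.43 CPM in the NAc and 2.99 to 4.82 CPM in the PFC (-0.98 ± 0.14). Their ranges overlapped at the edges, and the NAc was higher in 0 of 17 mice for both. Cortical markers and several of these genes were both higher in the PFC, and the part of cell types in the differences was not tested.

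HSP90 was divided. Hsp90aa1 was lower in the NAc, with 256 to 798 CPM (median 487) against 447 to 888 CPM in the PFC (median 675), a log2 fold change of -0.38 ± 0.11 (adjusted p = 0.0023). The ranges overlapped widely, and 3 of 17 mice went the other way. Hsp90ab1 (-0.06 ± 0.09) and Hsp90b1, the HSP90 of the ER (0.12 ± 0.07), did not pass the test. The remaining lower members were Hspa12a (-0.37), Dnajc4 (-0.32), Dnajb11, a J protein of the ER (-0.29), Dnajb5 (-0.29) and Cct4, a subunit of the cytosolic chaperonin TRiC (-0.27). Cct4 lay at the fold threshold and was lost under 6 of the alternatives.

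In the other direction, Bag5 was the firmest call. This exchange factor for HSP70 ranged from 40.2 to 54.5 CPM in the NAc (median 46.6), from 30.0 to 37.6 CPM in the PFC (median 32.8) and from 26.5 to 36.0 CPM in the SCN (median 30.6). NAc libraries lay above all others, which held for 1.68% of all rows, and the log2 fold change was 0.54 ± 0.04 (adjusted p = 3.3e-17; higher in 17 of 17 mice). Hspa13, an HSP70-like ATPase of microsomes (0.33 ± 0.06), and Dnajc18 (0.31 ± 0.03) were also higher in 17 of 17 mice.

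Of 24 class C J proteins, 6 were higher in the NAc and 3 lower, where 23.7% and 21.7% of all rows were. Dnajc1, an ER J protein that also binds ribosomes, was at 25.6 to 122.7 CPM in the NAc and 24.1 to 50.3 CPM in the PFC (0.52 ± 0.15). Its highest NAc value came from J1019, and among high-numbered mice the fold change was 0.16 (adjusted p = 0.34). The others were Dnajc2, a J protein of the ribosome (0.48 ± 0.09), Dnajc17, a nuclear J protein (0.48 ± 0.08), Dnajc9, a histone chaperone (0.40 ± 0.05), and Dnajc19, of the mitochondrial import motor (0.33 ± 0.07). Hspe1 (0.28 ± 0.07) and Hspb11, a protein of cilia (0.26 ± 0.10), completed the list. Both were lost among high-numbered mice, with 0.17 (adjusted p = 0.075) and 0.02 (adjusted p = 0.89). Hspb11 lay at the fold threshold and was lost under 4 of the 12 alternatives, this one among them.

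Hspe1 was called and its neighbour Hspd1 (0.06 ± 0.04, adjusted p = 0.23), which shares its promoter region, was not. The annotation lists 6 pseudogenes named after Hspe1 and 5 after Hspd1, and reads could be split between a gene and such copies. The cold-inducible genes and the textbook targets of heat shock did not pass the test. Hsph1 was at 0.01 ± 0.09, Cirbp at 0.02 ± 0.08 and Rbm3 at -0.26 ± 0.13 (adjusted p = 0.069). Rbm3 passed at -0.33 (adjusted p = 0.029) once the 6 NAc libraries with over 200 CPM of cortical markers were left out, and then 27 members were called, the 22 among them, and 48.3% of all rows. Hspa8 (-0.16 ± 0.04) and Hspa5 (-0.16 ± 0.07) had an adjusted p under 0.05 but stayed below the fold threshold.

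**Figure D2:**
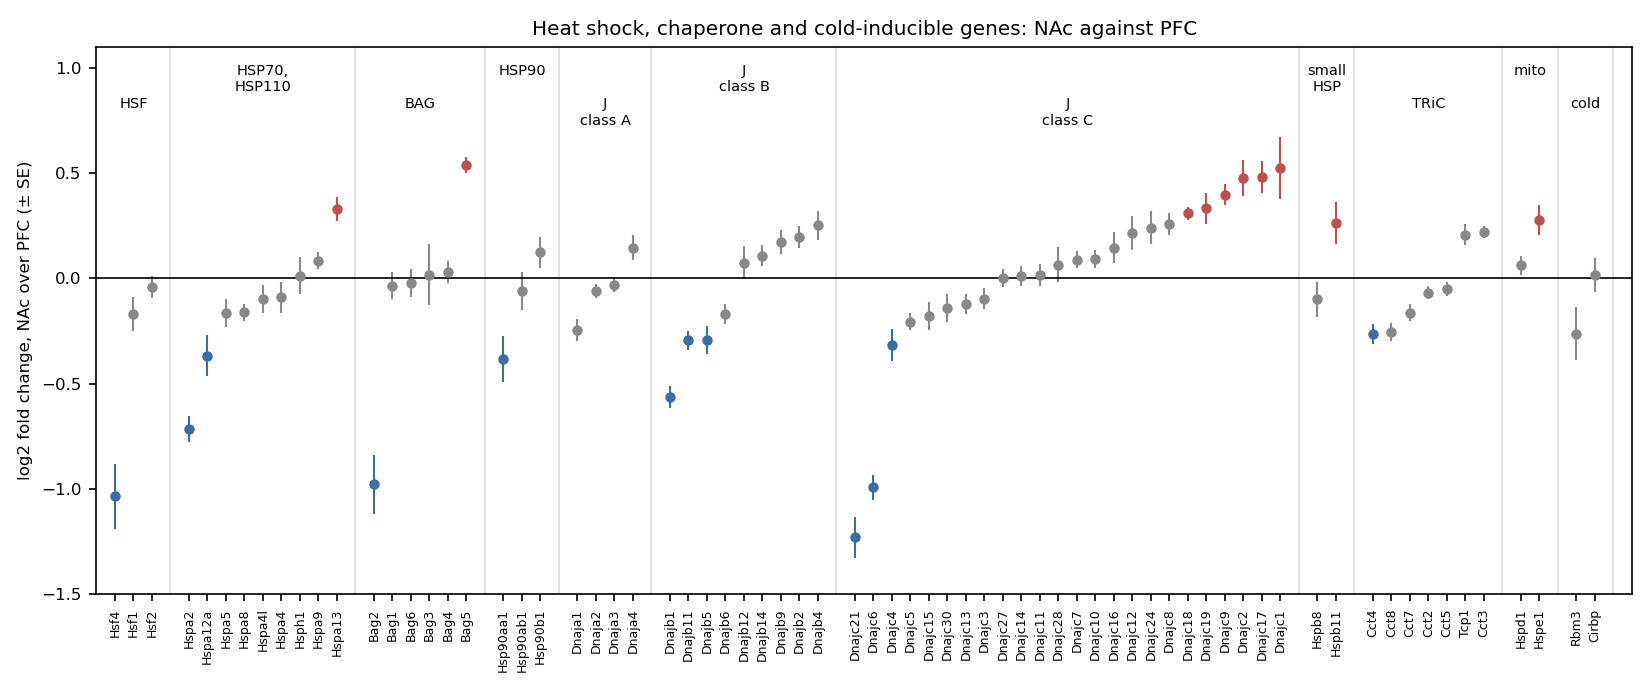
Log2 fold change of each of 71 members, NAc over PFC, with its SE, grouped by role; red points were called higher in the NAc (10), blue points lower (12) and grey points were not called. The groups spread to both sides of 0, from Dnajc21 at -1.23 to Bag5 at 0.54.

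With the mouse number as a block over the 17 mice with both regions, 28 members were called (15 higher, 13 lower; 49.1% of all rows), of which 21 were among the 22. The fit of the same 34 libraries without the block also gave 28. Scaling by the total of protein-coding genes moved the split to 13 higher and 9 lower. Over all 11569 rows it moved the same way, from 2738 higher and 2516 lower to 3082 and 2275, and their median moved to 0.05. When the size of the region difference was compared between low- and high-numbered mice, no row and no member passed (0%). At an unadjusted p under 0.05 in edgeR there were 10 of 71 members and 2279 of 11569 rows. Other genes of the pathway were read from lists, against the same 23.7% higher and 21.7% lower of all rows. Of 16 co-chaperones of HSP90 and HSP70, 1 was higher in the NAc, St13 (0.27), and 2 were lower, Hspbp1 (-0.51) and Ahsa2 (-0.45). Of 21 genes of ER folding and the unfolded protein response, 3 were higher and 3 lower, the largest being Sil1, the exchange factor of Hspa5 (0.74), and Atf4 (-0.64). Of 6 prefoldin genes, Pfdn2 was lower (-0.54), and of 6 other mitochondrial folding genes none was called.

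Within a region, the question was which members rise and fall with Hsph1 from mouse to mouse. The slope of every gene on the log2 CPM of Hsph1 was tested in edgeR. In the NAc, Hsph1 ranged from 123 CPM in J1019 to 387 CPM in J1011 (median 233). There, 45 of the other 70 members had a slope that passed (64.3%), where 53.8% of all 11568 rows did. Of these members 30 rose with Hsph1 (42.9%, against 26.8% of all rows) and 15 fell (21.4%, against 27.1%). In the PFC, Hsph1 ranged from 157 to 306 CPM (median 222), and 33 of 70 members passed (47.1%, against 34.1% of all rows), 20 rising (17.9% of all rows) and 13 falling (16.2%). Slopes on Hsph1 thus passed for a large part of the whole table in both regions.

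All 3 HSP90 genes rose in both regions. In the NAc the slope was 1.03 ± 0.08 for Hsp90ab1, 1.19 ± 0.13 for Hsp90aa1 and 0.80 ± 0.07 for Hsp90b1 (log2 per log2 of Hsph1, ± SE). In PFC libraries it was 0.94 ± 0.11, 0.92 ± 0.14 and 0.77 ± 0.10. Hsp90ab1 had the highest r with Hsph1 of all rows in the NAc and rank 3 in the PFC. Hspa4, another HSP110, had a slope of 0.71 ± 0.09 in the NAc and 0.92 ± 0.11 in the PFC, and Hspa4l 0.61 ± 0.09 and 0.63 ± 0.15. Hspa12a, a distant HSP70 relative, was as steep as HSP90 (0.96 and 1.03). Hsf4, a gene of low counts, was the steepest in the NAc (1.25) and did not pass in the PFC. The difference of its NAc slope from that of the PFC, 1.38 ± 0.62, did not pass either (edgeR adjusted p = 0.57). Hspa8 had flatter slopes, 0.24 ± 0.08 and 0.32 ± 0.10. Of the members that rose, 19 did so in both regions, 63.3% of the 30 in the NAc and all but 1 of the 20 in the PFC. Over all rows, those that rose in both regions were 55.9% of the risers of the NAc and 83.6% of those of the PFC.

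Members that fell as Hsph1 rose were fewer and of mixed role. In both regions these were 9: Bag4, Dnajb4, Dnajc1, Dnajc12, Dnajc19, Dnajc27, Hspb11, Hspe1 and the TRiC subunit gene Tcp1 (9 of the 15 in the NAc and 69.2% of the 13 in the PFC, against 45.5% and 76.1% over all rows). Dnajc1 had the steepest slope of these in both, with -1.21 ± 0.17 for the NAc and -1.20 ± 0.22 for the PFC. The mitochondrial pair went apart again, since Hspd1 rose with Hsph1 in the NAc (0.31 ± 0.08) while Hspe1 fell in the NAc (-0.36 ± 0.13) and the PFC (-0.42 ± 0.13). No member passed in opposite directions in the NAc and the PFC. When slopes were compared between the regions, no row and no member passed (0%), with 8 members and 967 rows at an unadjusted p under 0.05 in edgeR.

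**Figure D3:**
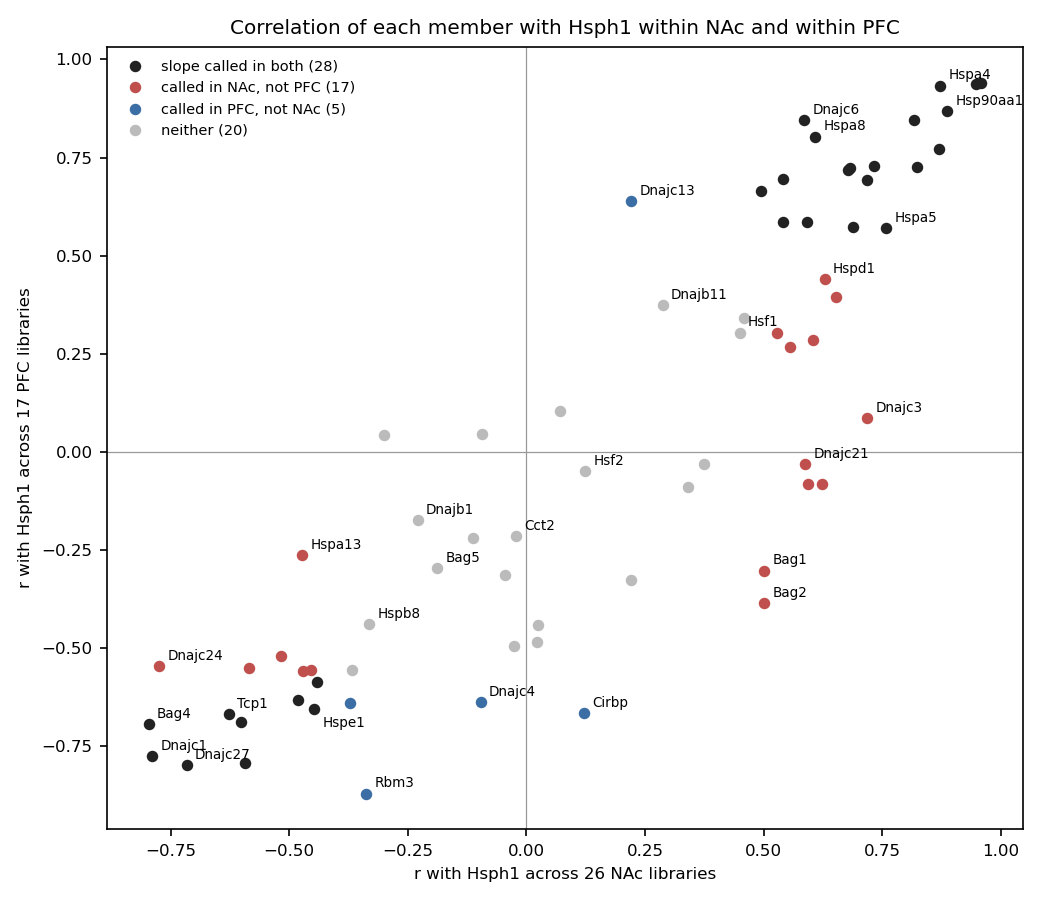
Pearson r of each of 70 members with Hsph1 (log2 CPM) across 26 NAc libraries (x axis) and 17 PFC libraries (y axis), coloured by whether the slope on Hsph1 passed in edgeR; a selection of members is named. The 28 members that passed in both regions lie in the upper right (19) and lower left (9) corners, and Rbm3 and Cirbp lie low on the PFC axis.

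Library measures moved with Hsph1. The share of mt-Rnr1 and mt-Rnr2 had an r of -0.74 with Hsph1 in NAc, -0.84 in PFC and -0.33 in SCN libraries. The mean z-score of the 5 cortical markers had an r of 0.47 with Hsph1 in the NAc and 0.80 in the PFC, and 4 of these markers rose with Hsph1 in the NAc and 3 in the PFC. Astrocyte markers (5 genes) had an r of 0.71 with Hsph1 in the NAc, 0.77 with Hsp90ab1 there and 0.021 with Hsph1 in the PFC, and oligodendrocyte markers 0.38 with Hsph1 in the NAc and 0.15 in the PFC. Across protein-coding genes, r with Hsph1 also rose with transcript length (rho 0.22 in the NAc and 0.40 in the PFC) and with GC content (0.32 and 0.24); genes are not independent replicates. With the share of mt-Rnr1 and mt-Rnr2 as a term, 22 members and 12.2% of all rows passed in the NAc. Of these members 19 rose (7.31% of all rows) and 3 fell (4.9%). In the PFC only Hspa4 was left (1.09 ± 0.19, adjusted p = 0.047; 0.0173% of all rows). With Slc17a7, a cortical marker, as a term, 27 members passed in the NAc. The share of all rows in that fit is not given here, so this count is not read as particular to the members. Which of these sources carries the axis was not tested beyond these fits.

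In the SCN, no row passed with Hsph1 (0%), with 16 members and 1110 rows at an unadjusted p under 0.05 in edgeR and 0 members called with the size factors of DESeq2. Hsph1 ranged there from 157 to 304 CPM (median 187), and its highest value, in J1011, stood clear of the next at 232 CPM. The row with the highest r was Stip1 (r = 0.83, slope 0.77 ± 0.14, adjusted p = 0.097), which encodes HOP, the link between HSP70 and HSP90. Stip1 also rose with Hsph1 in the NAc (0.79 ± 0.10) and the PFC (0.62 ± 0.14), and with it 6 of 16 co-chaperones rose in NAc (26.8% of all rows) and 4 of 16 in PFC libraries (17.9%). Of 6 prefoldin genes, which deliver substrates to TRiC, 4 fell in the NAc (27.1% of all rows) and 4 in the PFC (16.2%).

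Hspa5 was taken as the marker of the ER response. In the NAc, 22 of 70 members passed with it (31.4%, against 21.3% of all rows), 18 rising and 4 falling (10.6% of all rows each way). The steepest were Hsp90aa1 (1.46 ± 0.21), Hsph1 (0.99 ± 0.17) and Hsp90ab1 (0.97 ± 0.20), for cytosolic proteins, ahead of the ER members Hsp90b1 (0.81 ± 0.15), Dnajc3 (0.44 ± 0.11) and Dnajb11 (0.32 ± 0.11). In the PFC 1 member passed, Dnajc16 (0.87 ± 0.23; 2.8% of all rows). Hspa5 there ranged from 188.0 to 212 CPM in low-numbered mice and from 142 to 187.9 CPM in high-numbered mice, with no overlap (n = 7 and 10), and with these blocks as a term no row passed. In the SCN no member passed and 18 rows did (0.149%), among them Pdia4 and Pdia6, disulfide isomerases of the ER. With the share of mt-Rnr1 and mt-Rnr2 as a term, 14 members (18.9%) and 9.54% of all rows passed in the SCN. They included 6 of the 7 TRiC subunit genes, such as Cct3 (0.97 ± 0.18) and Cct5 (0.83 ± 0.18), and Hspe1 (1.46 ± 0.23). Against Cirbp, no row passed in any region (0%), with 11 members and 1053 of 12046 rows in SCN, 12 members and 2235 of 11568 rows in NAc, and 21 members and 2621 of 11568 rows in PFC libraries at an unadjusted p under 0.05 in edgeR.

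Pairs of members taken from textbook knowledge were then correlated, 52 relations over the 3 regions, with permutation tests adjusted together. Of 18 pairs in the SCN 10 passed, and of 17 in the NAc and 17 in the PFC 12 each. Hsph1 and Hsp90ab1 were the closest pair of the NAc (r = 0.96, rho = 0.97, permutation adjusted p = 0.0001, 0.95 without the 2 libraries farthest from the median) and of the PFC (r = 0.94, rho = 0.94, adjusted p = 0.0001, 0.94). In the SCN the value was 0.63 (rho 0.66, adjusted p = 0.0084, 0.46). For low- and high-numbered mice r was 0.98 and 0.95 in the NAc, 0.90 and 0.97 in the PFC, and 0.71 and 0.70 in the SCN. Cct2 and Tcp1, subunit genes of the same ring, were the closest pair of the SCN (r = 0.90, rho = 0.83, permutation adjusted p = 0.0001, 0.76 without 2 libraries).

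Other textbook pairs did not hold. Hsph1 and Dnajb1, both targets of Hsf1, had r = -0.32 in SCN, -0.23 in NAc and -0.17 in PFC libraries, and Hspd1 and Hspe1, which share the element printed above, had -0.11, 0.03 and -0.18. None of these 6 relations passed the permutation test (adjusted p from 0.23 to 0.87). Hsph1 and Hspa8 had r = 0.70 in SCN, 0.61 in NAc and 0.80 in PFC libraries (rho 0.66, 0.64 and 0.56), all past the test. Within low- and high-numbered mice, however, r was 0.91 and 0.25 for the SCN and 0.80 and -0.11 for the NAc, and without J1011 the SCN value was 0.49 (adjusted p = 0.079). Hspa5 and Dnajb11 had r = 0.76 in the SCN (rho 0.69, permutation adjusted p = 0.0011) and 0.63 without 2 libraries. Over all pairs of members, 14.9% had r above 0.5 in SCN, 14.6% in NAc and 14.2% in PFC libraries, against 9.41%, 12.1% and 9.37% of all pairs of rows.

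Cold-inducible genes were set against Hsph1 and Hsp90aa1. Rbm3 and Hsph1 in the PFC had r = -0.87 (rho -0.74, permutation adjusted p = 0.0001), with -0.71 without the 2 libraries farthest from the median, -0.89 in low-numbered and -0.86 in high-numbered mice. The residuals on the share of mt-Rnr1 and mt-Rnr2 kept an r of -0.80. Cirbp and Hsph1 had r = -0.66 in the PFC (rho -0.56, adjusted p = 0.0084), but -0.49 without 2 libraries, -0.52 without J1019 (adjusted p = 0.061) and -0.32 in the residuals. Cirbp and Hsp90aa1 had r = -0.53 in the PFC (rho -0.62, permutation adjusted p = 0.048), -0.71 in low-numbered and -0.48 in high-numbered mice, -0.45 without 2 libraries, -0.46 without J1019 (adjusted p = 0.10) and -0.13 in the residuals (adjusted p = 0.65). In the SCN this pair had r = -0.36 and did not pass (permutation adjusted p = 0.15), and it had -0.088 without J1011 and -0.39 in the residuals.

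In the SCN, Cirbp and Hsph1 had r = -0.75 (rho -0.62, permutation adjusted p = 0.0014), with -0.89 in low-numbered and -0.61 in high-numbered mice, and -0.76 in the residuals on the mitochondrial share. J1011 had the highest Hsph1 (304 CPM) and the lowest Cirbp (22.9 CPM) and Rbm3 (5.45 CPM) of the SCN. Without it, r was -0.58 and still passed (adjusted p = 0.032), and without the 2 farthest libraries it was -0.55 (adjusted p = 0.068). Rbm3 and Hsph1 had r = -0.65 in the SCN (rho -0.48, adjusted p = 0.0097), which rested on J1011, since r was -0.35 (adjusted p = 0.24) without it. Markers of SCN neurons had an r of 0.64 with Cirbp and -0.51 with Hsph1, and immediate early genes one of 0.39 and -0.68. Their part in these relations was not tested.

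In the NAc, Cirbp and Hsph1 had r = 0.12 and did not pass the permutation test (rho -0.01, adjusted p = 0.59). This value was 0.38 without J1011 (adjusted p = 0.11), -0.18 without J1019 and -0.26 in the residuals on the mitochondrial share. Rbm3 and Hsph1 had r = -0.34 (adjusted p = 0.12). Single libraries also moved the value of Rbm3 in both directions, to -0.61 without J1019 (adjusted p = 0.0042) and to -0.08 without J1011. The residuals on the mitochondrial share gave -0.51 (permutation adjusted p = 0.015), and with that share as a term Rbm3 fell with Hsph1 in the NAc (slope -1.11 ± 0.35, edgeR adjusted p = 0.039). For Cirbp and Hsp90aa1 r was 0.11 (permutation adjusted p = 0.62). The slope of Cirbp on Hsph1 was -0.84 ± 0.24 in the PFC, and the difference of the NAc from it, 0.93 ± 0.33, did not pass (adjusted p = 0.49). Cirbp and Rbm3 rose together in all 3 regions, with r = 0.58 in SCN, 0.52 in NAc and 0.71 in PFC libraries, and passed the permutation test (adjusted p = 0.016, 0.011 and 0.0038). In the NAc this was 0.34 in low-numbered and 0.0013 in high-numbered mice, and in the SCN 0.32 without J1011, and none of the 3 passed on ranks (rho 0.44, 0.42 and 0.52).

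**Figure D4:**
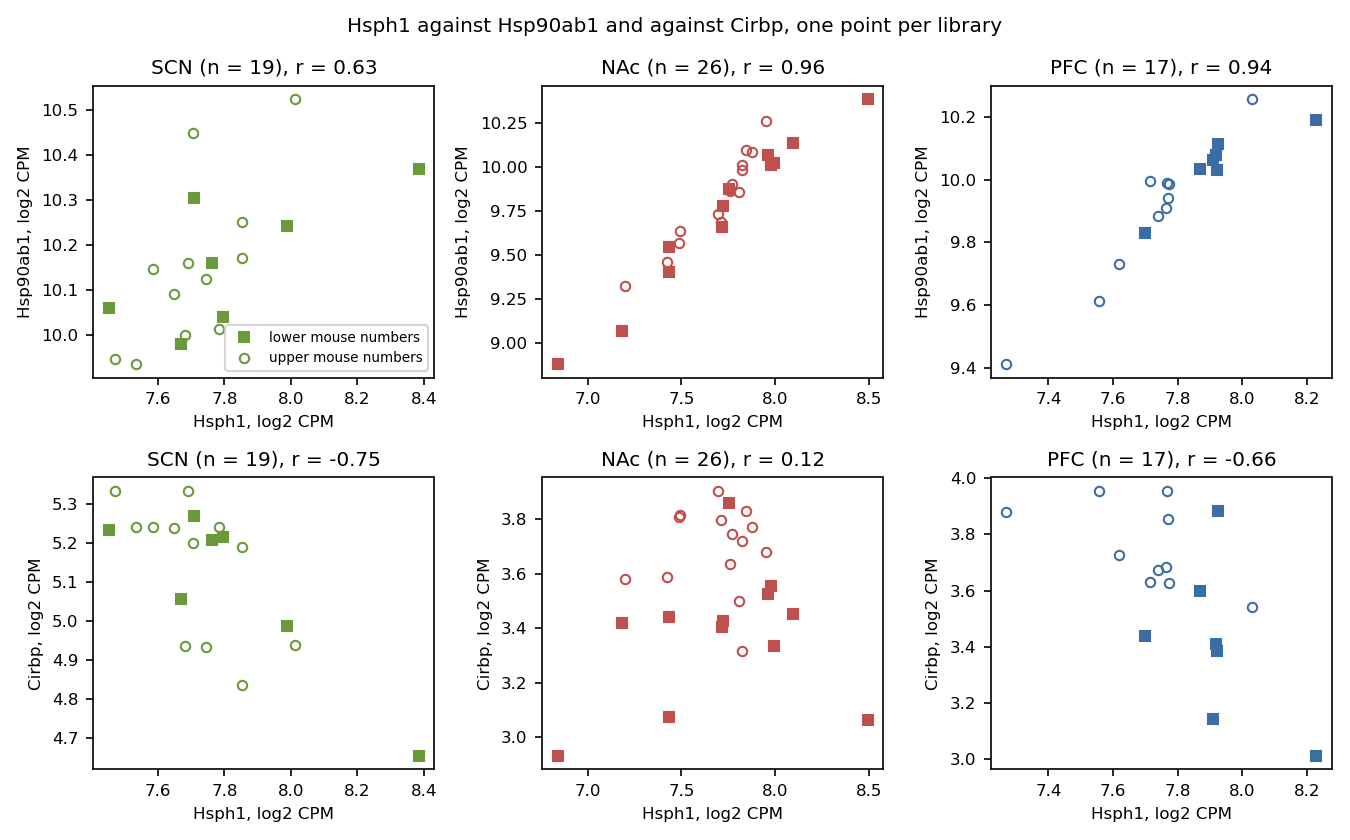
Log2 CPM of Hsp90ab1 (top) and Cirbp (bottom) against that of Hsph1 within the SCN (n = 19), NAc (n = 26) and PFC (n = 17), 1 point per library; filled squares are low-numbered and open circles high-numbered mice. Hsp90ab1 follows Hsph1 tightly in the NAc and PFC (r 0.96 and 0.94), and Cirbp falls with Hsph1 in the SCN (-0.75) and PFC (-0.66) and has an r of 0.12 in the NAc.

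The levels of Cirbp and Rbm3 in the NAc and PFC of the same mouse were correlated, and those of Hsph1 did not pass the test. Across the 17 mice with NAc and PFC libraries, Cirbp had r = 0.78 (rho 0.69, permutation adjusted p = 0.0076 over 27 relations), 0.65 without the 2 farthest mice. It ranked 7th of 11569 rows by this r. Rbm3 had r = 0.68 (rho 0.47, adjusted p = 0.031), 0.41 without 2 mice, and ranked 31st. These were the only members with r above 0.5 (2.82% of members, 2.33% of all rows), and the median over members was -0.08, as over all rows. The next members by r were Dnajb11 (0.43), Dnajc28 (0.43) and Hspa5 (0.36), given as a description. Hsph1 had r = -0.41 (rho -0.34, permutation adjusted p = 0.45), -0.05 without the 2 farthest mice and -0.12 without J1019. It was -0.78 in low-numbered and -0.18 in high-numbered mice. Hsp90aa1, Hsp90ab1 and Hspa8 had r of -0.34, -0.30 and -0.06.

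Levels in low- and high-numbered mice overlapped, and their difference was not tested. Cirbp had a median of 11.5 CPM in low-numbered and 14.3 CPM in high-numbered mice in the NAc, and of 10.8 and 13.3 CPM in the PFC. Rbm3 was at 8.32 and 12.3 CPM in the NAc and 9.90 and 14.5 CPM in the PFC. In the SCN the medians were 33.3 and 33.2 CPM for Cirbp and 9.98 and 13.7 CPM for Rbm3. Within these blocks, r of Cirbp between the NAc and PFC was 0.60 (n = 7) and 0.53 (n = 10). After centring on each block it was 0.57, which did not pass the permutation test (adjusted p = 0.22). For Rbm3, r was 0.81 in low-numbered mice but 0.10 in high-numbered mice. Without J1019, the lowest Cirbp of both regions (8.16 and 8.18 CPM), r of Cirbp was 0.66 (permutation adjusted p = 0.044). That of Rbm3 was then 0.51 and did not pass (adjusted p = 0.19). The residuals on the mitochondrial share gave 0.30 for Cirbp and 0.58 for Rbm3, and neither passed the permutation test (adjusted p = 0.59 and 0.12).

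The SCN of the same mice gave smaller values for Cirbp and Rbm3. Between the NAc and SCN (19 mice), Rbm3 had r = 0.58 and Cirbp 0.49, and between the PFC and SCN (12 mice) Cirbp had 0.54 and Rbm3 0.37. None of these 4 passed the permutation test (adjusted p from 0.11 to 0.54), and without J1011 the NAc and SCN values were 0.24 and 0.27. Between the NAc and SCN, r of Rbm3 was 0.90 in low-numbered (n = 7) but -0.33 in high-numbered mice (n = 12). Cirbp had 0.77 and 0.44 there. Without the 2 farthest mice, r was 0.14 for Rbm3 and 0.15 for Cirbp. As a description over 12 mice, Bag3 (r = 0.78) and Dnajb4 (0.76) were the closest members between the PFC and SCN, where 11.3% of members and 7.96% of all rows had r above 0.5.

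**Figure D5:**
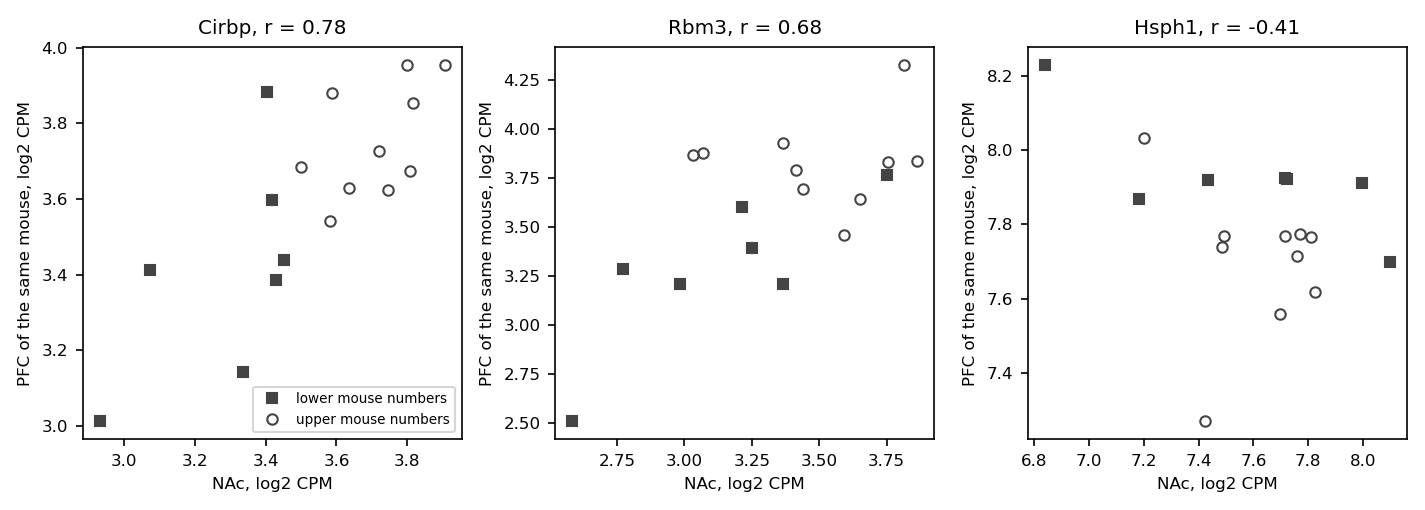
Log2 CPM in the PFC against that in the NAc of the same mouse for Cirbp, Rbm3 and Hsph1 (17 mice); filled squares are low-numbered and open circles high-numbered mice. Cirbp (r 0.78) and Rbm3 (0.68) rise together in both regions, with most squares below the circles, and Hsph1 has an r of -0.41. Within high-numbered mice r was 0.53 for Cirbp and 0.10 for Rbm3. Without the 2 mice farthest from the median, Hsph1 had -0.05.

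The genes nearest to Cirbp within each region were no members. In the SCN they were Ddrgk1 (r = 0.82), Thbs3 (0.81) and Hmgb3 (0.79) over 19 libraries, and the clock gene Cry1, a repressor of the daily cycle, came 7th (0.76). In the NAc they were Bmp2k (0.70), Arl6ip4 (0.70) and Pon2 (0.69) over 26 libraries, and in the PFC Cep83os (0.84), Gnb1 (0.84) and Gabrg1 (0.83) over 17. None of these slopes passed the test over all rows. For Hsph1 the nearest were Hsp90ab1, Hsp90b1 and Baz1b in the NAc (0.96, 0.95 and 0.95), Eif3c, Dlg3 and Hsp90ab1 in the PFC (0.94 each), and Stip1, Ctnna2 and Ino80e in the SCN (0.83, 0.83 and 0.82).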

How the data were processed

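The authors used HISAT2 to align reads of SMART-Seq HT libraries, whose kit does not mark strand, to GRCm38, took gene counts from HTSeq (union) and removed genes of low CPM and of chromosome Y. They deposited raw counts, for the SCN (12047 rows) apart from the other regions (11569 rows). Within a region each library is a separate animal.

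Here the counts were fitted with edgeR 4.0.16 in R 4.3.3 (TMM, filterByExpr, quasi-likelihood test, Benjamini-Hochberg adjustment over all rows), with no block in the main comparison. NAc and PFC libraries of 1 number come from 1 animal and so are paired. The deviations of their libraries correlated from -0.449 to 0.272 (median 0.006), over 0.1 in 7 of 17. Within a region, log2 CPM (prior count 2) was used for slopes and for correlations, with two-sided permutation tests of 100000 resamples (smallest p 1e-05; exact under 10 libraries). Positions and exon lengths came from GENCODE M21, promoters from RefSeq (GRCm38.p6). Of the members, 27 share exon bases with another gene, at least 25% of them in Dnaja4 (with Wdr61) and Dnajc30 (with Bud23), both antisense, so their counts are uncertain. Named were the 10 called members with the largest change in each direction, the genes of the fixed pairs and of the relations between regions, Hsf1, Hsf2, Hspa1a, Hspb1, Hspb8, Bag3 and Hspa9, the 5 most spread members of a region with a mean of at least 5 CPM, and the 5 with the highest r between the NAc and PFC. Other genes were named after their values were seen. The members, lists, pairs and tests were chosen with earlier results of these data known. Fits were checked on simulated counts. DESeq2 1.42.0 was an alternative. CRD, age and sex were not analysed here.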

Additional observations from a re-analysis of the deposited data

How the results depend on the processing

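The number of members called between the NAc and PFC stayed between 17 and 31 in every alternative with the fold threshold. The 17 were in high-numbered mice, with 4984 of all 11569 rows called, and the 31 in low-numbered mice, with 5426 rows. Without the fold threshold the number was 42 (63.1% of all rows). With the mouse number as a replicate block it was 28 (5681 rows), as in the same mice without the block (5743 rows). Directions near 0 turned. Bag3 was at -0.16 with the block, -0.12 when these mice were fitted unblocked, -0.14 in low-numbered mice and -0.014 without NAc libraries rich in cortical markers, and Hsph1 at -0.11, -0.10, -0.080 and -0.011. Hsf2 was at 0.047 in low-numbered and Hsp90ab1 at 0.030 in high-numbered mice.

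Slopes on Hsph1 passed for 22 members in the NAc and 1 in the PFC with the share of mt-Rnr1 and mt-Rnr2 as a term, for 26 and 16 when the 2 libraries farthest from the median were dropped, and for 27 in the NAc with Slc17a7 as a term. Slopes on Hspa5 passed in the NAc for 13 members without 2 libraries and 9 with Slc17a7. In the SCN they passed for 3 with DESeq2 size factors, 2 without mitochondrial and ribosomal RNA genes and 14 with the mitochondrial share. In the PFC they passed for 3 with size factors, 6 without those genes, and 0 with the mitochondrial share, with the number block, or without 2 libraries. With the mitochondrial share as a term, 12.2% of all rows passed with Hsph1 in the NAc and 0.0173% in the PFC. With Hspa5 in the SCN it was 9.54%. The other counts stand without the share of all rows and are not read as particular to the members. The cause of these shifts was not tested.

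Pairs passed in the SCN for 5 relations on ranks, 2 without 2 libraries, 3 in low-numbered and 5 in high-numbered mice and 5 without J1011. In the NAc 7 passed without 2 libraries and 4 in high-numbered mice. In the PFC 4 passed without 2 libraries, 0 in low-numbered and 5 in high-numbered mice, 7 in residuals on the mitochondrial share and 7 without J1019. Reversed values of r were -0.11 for Hsph1 and Hspa8 and -0.13 for Hsph1 and Hspd1 (NAc, high-numbered), -0.30 for Hsph1 and Dnaja1 (SCN, high-numbered), 0.029 (high-numbered) and 0.17 (residuals) for Hsph1 and Dnajb1 in the PFC, 0.048 (without 2 libraries), 0.56 (low-numbered) and 0.022 (residuals) for Hspd1 and Hspe1 in the SCN and -0.23 in the NAc (low-numbered), and -0.0099 (ranks), -0.26 (residuals) and -0.18 (without J1019) for Cirbp and Hsph1 in the NAc. Relations between the NAc and PFC of the same mouse passed for 0 genes on ranks, after centring on blocks, without 2 mice and in residuals, and for 1 without J1019. The number blocks hold 7 to 14 libraries. The residuals and the fits without J1011, J1019 or NAc libraries rich in cortical markers were chosen after seeing the data. Low counts limit Hspa1a, Hspa1b, Bag2, Bag3 and Hsf4.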
